A study of Mus musculus with 82 samples.

Results

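Cytokines, chemokines and their receptors were described in mouse liver from 56 array probes of 55 genes. The members are all probes whose single platform gene symbol begins with Il and a digit, or with Ccl, Cxcl, Ccr, Cxcr, Tnf, Ifna, Ifnb, Ifng, Ifnar or Ifngr. The rule took 56 of 21936 probes on the array, of which 3290 carried 1 platform symbol. The members fall into 13 chemokine ligands, 5 chemokine receptors, 1 interferon (Ifnb1), 3 interferon receptor chains, 8 interleukin ligands, 15 interleukin receptor chains, 3 ligands and 4 receptors of the TNF family, and 3 other proteins. Those 3 are Il18bp, a secreted inhibitor of Il18, Il4i1, an amino acid oxidase, and Tnfaip1, a protein induced by TNF, and they are kept apart from ligands and receptors below. Il2ra was the member gene with 2 probes. Il1f6 and Il1f5 are older names of Il1 family genes, an agonist and a receptor antagonist.

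Cytokines are secreted or membrane-bound signals of immune and stromal cells, and chemokines are the small cytokines that steer cell migration. Interferon receptors and many, but not all, interleukin receptors pair chains that bind the ligand with shared chains and signal through Jak kinases and Stat factors. TNF family receptors signal through Traf adaptors and chemokine receptors through G proteins. In adult liver such signals are known from resident macrophages, lymphocytes, endothelium and stellate cells, and hepatocytes carry receptors for several of them. Before birth the liver is a site of blood formation.

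The BXD strains are recombinant inbred mice bred from a cross of C57BL6/J (B6) and DBA2/J (D2), so that each strain carries a fixed mix of both parental genomes. Liver RNA from males and females of 17 BXD strains was compared with RNA of B6 embryos of day 17.5 on 72 two-colour arrays (32 of males, 40 of females), and B6 male liver was compared with the same embryo reference on 2 arrays. The parents were compared with each other, B6 against D2 liver, on 6 arrays, and 2 further arrays held RNAs of both labelled as enriched. Mice were 10 to 20 weeks old and unfasted, with 3 mice per strain per the series description, which names 18 strains and males where the labels hold 17 strains and both sexes. No source used here says whether the RNA of the 3 mice was pooled, so the spread below is that between strains and between arrays. The embryo reference holds all embryonic organs, and every ratio against it shares that 1 reference. With bulk tissue, fewer cells of a type and less RNA per cell cannot be told apart, and a ratio gives no level that could be compared between genes.

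Each deposited value is a log ratio, read here as log10 and rescaled to log2, and dye-swapped arrays were turned so that a positive value means more RNA in liver or, on the direct arrays, in B6. The base of the logarithm is not stated and the direction was taken from the data. The 5 hepatocyte marker probes had a median above that of 6 probes of bone, cartilage and fibroblast genes on 74 of 74 arrays against embryo, with a lowest hepatocyte median of 2.55 and a highest median of the other list of -0.17. In 32 pairs of a forward array and its dye swap the deposited values correlated between -0.895 and -0.556. For the 2 direct B6 and D2 pairs the correlation after turning was -0.0187 in males and 0.133 in females, so these arrays carried little shared B6 and D2 signal and their direction is likely, not settled. Both dye orientations were present in both sexes for 13 strains, and 4 strains (BXD8, BXD9, BXD14 and BXD27) had forward arrays alone.

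Against the embryo reference, 6 of the 56 members passed an adjusted p of 0.05 with a log2 ratio of at least 1 in either direction, 2 of them higher and 4 lower in liver. The chemokine receptor Ccr7 and the chemokine Cxcl12 were higher. The TNF family receptor Tnfrsf19, the interferon gamma receptor chain Ifngr1, the Il1 family ligand Il1f6 and the chemokine Cxcl14 were lower. Over all 21936 probes the same rule called 13.9% in either direction, 4.69% higher and 9.17% lower, so the members' share of 10.7% lay near the background. Without the size minimum, 45 members (80.4%) had an adjusted p under 0.05, 30 higher and 15 lower, beside 83.9% of all probes. The median absolute log2 ratio of the members was 0.26 and that of all probes 0.32.

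**Figure D1:**
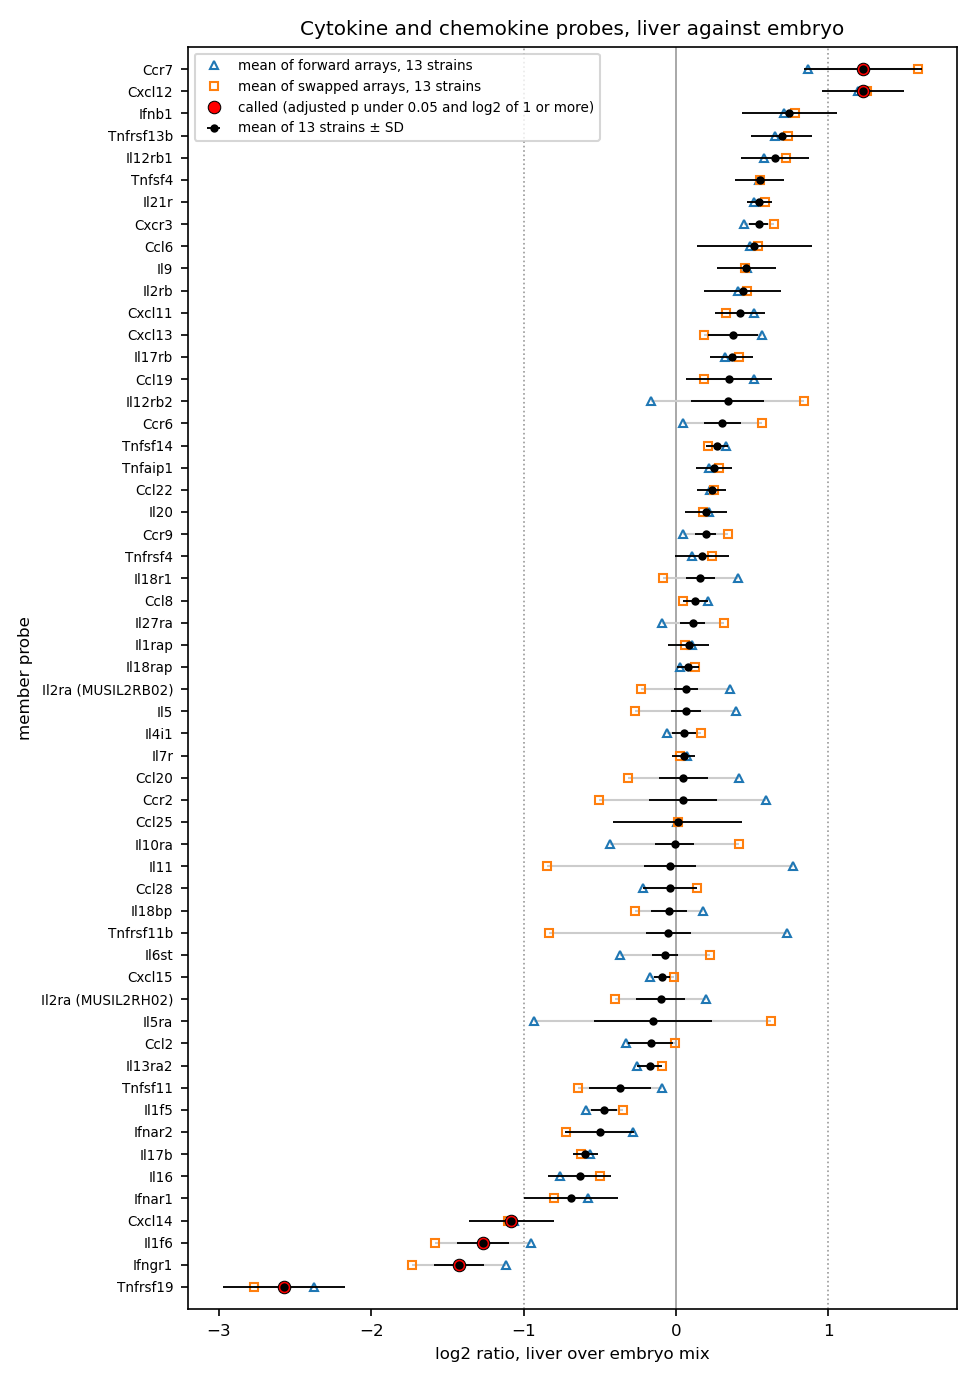
Log2 ratio of liver over embryo for each of the 56 member probes, as the mean of 13 strains with its SD (black), the mean of forward arrays (triangles) and the mean of swapped arrays (squares). Red points mark the 6 called members, and the grey lines join the orientations, which lie on opposite sides of 0 for 16 members such as Il11, Tnfrsf11b, Ccr2 and Il5ra.

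Ccr7, the receptor that guides T cells and dendritic cells to lymphoid tissue, lay between 0.58 in BXD15 and 1.80 in BXD18, with a median of 1.27, over the means of the 13 strains. All 13 strains were above 0, with a mean log2 ratio of 1.23 ± 0.39 (SD, n = 13), which is 2.34-fold, and an adjusted p of 6.99e-09 in limma. Its mean was 0.87 on forward and 1.59 on swapped arrays, and the ratio fell under the size minimum on forward arrays alone (0.87) and in females alone (0.95). Cxcl12, a chemokine of stromal cells that holds blood precursors in their niche, lay between 0.75 in BXD12 and 1.66 in BXD11, with a median of 1.23. All strains were again above 0, the mean was 1.23 ± 0.27 (SD, n = 13) with an adjusted p of 9.59e-11, and the forward mean of 1.20 and swapped mean of 1.26 were close. In the 4 strains with forward arrays alone Cxcl12 was between 1.73 and 2.20, all above the 1.66 reached on forward arrays by the 13 strains.

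Tnfrsf19, a TNF family receptor known from embryonic epithelia, had the lowest ratio of the members. Its strain means ran from -3.12 in BXD12 to -1.47 in BXD15, with a median of -2.65. All 13 strains were below 0, and the mean of -2.57 ± 0.40 (SD, n = 13; adjusted p = 1.07e-12) is a 5.94-fold lower signal in liver. Cxcl14, a chemokine of epithelia, lay between -1.61 in BXD28 and -0.66 in BXD31 with a median of -1.04. Its mean of -1.08 ± 0.28 (SD, n = 13; adjusted p = 6.43e-10) was near the size minimum, and it missed it after quantile normalization (-0.96) and in females alone (-0.96). Il1f6, an epithelial cytokine, lay between -1.57 in BXD15 and -1.07 in BXD2 with a median of -1.22. Its mean was -1.26 ± 0.17 (SD, n = 13; adjusted p = 3.32e-13), with -0.95 on forward and -1.58 on swapped arrays.

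The 3 measured interferon receptor chains were all lower in liver, and 1 of them, Ifngr1, was called. Ifngr1, which binds interferon gamma, lay between -1.65 in BXD12 and -1.17 in BXD16 with a median of -1.44, and its mean was -1.42 ± 0.16 (SD, n = 13; adjusted p = 4.18e-14). Ifnar1 and Ifnar2 together form the receptor for alpha and beta interferons. Ifnar1 had a mean of -0.69 ± 0.31 (SD) and Ifnar2 one of -0.50 ± 0.23 (SD), each below 0 in 13 of 13 strains and under the size minimum. Ifnb1, a ligand of that receptor, had a mean of 0.75 ± 0.31 (SD) and was above 0 in 12 of 13 strains, with BXD15 at -0.11. Both chains of that receptor were thus below the reference where this ligand was above it. In the 4 strains with forward arrays alone Ifngr1 was at 0.18 in BXD8, -0.32 in BXD9, -0.29 in BXD14 and -0.83 in BXD27. The forward means of the other 13 strains ran from -1.42 to -0.57. BXD8, BXD9 and BXD14, which were of 1 run, lay above that range, and BXD27, of another run, lay within it.

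RefSeq promoter sequences (GRCm38.p6) were matched for 44 of the 55 member genes by gene ID, with the most upstream start where a gene has several. The start is that of the promoter table, and for 14 of the 44 genes bases before it lie inside the gene model of the RefSeq gene table, so that for Ifnar1 (183 of 250 bases) and Cxcl14 (all 250) no stretch is shown. The 250 bases before the start are shown for the interferon receptor chains Ifngr1 and Ifnar2, which were low in liver together, for the chemokine Cxcl12, which was high, and for Tnfrsf19, the member that differed between strains. Each reads 5′ to 3′ along the gene's strand, with matches to 4 motifs in capitals.
Ifngr1, chr10:19591699-19591948, plus strand: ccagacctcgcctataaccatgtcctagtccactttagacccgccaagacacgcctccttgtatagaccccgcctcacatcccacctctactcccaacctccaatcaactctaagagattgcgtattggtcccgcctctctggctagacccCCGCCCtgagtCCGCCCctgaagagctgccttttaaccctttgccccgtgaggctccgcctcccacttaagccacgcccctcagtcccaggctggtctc
Ifnar2, chr16:91372533-91372782, plus strand: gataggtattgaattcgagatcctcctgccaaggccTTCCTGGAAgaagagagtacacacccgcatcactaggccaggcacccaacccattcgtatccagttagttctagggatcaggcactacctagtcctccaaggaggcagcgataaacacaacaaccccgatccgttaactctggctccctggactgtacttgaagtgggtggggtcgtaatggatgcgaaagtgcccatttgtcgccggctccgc
Cxcl12, chr6:117168285-117168534, plus strand: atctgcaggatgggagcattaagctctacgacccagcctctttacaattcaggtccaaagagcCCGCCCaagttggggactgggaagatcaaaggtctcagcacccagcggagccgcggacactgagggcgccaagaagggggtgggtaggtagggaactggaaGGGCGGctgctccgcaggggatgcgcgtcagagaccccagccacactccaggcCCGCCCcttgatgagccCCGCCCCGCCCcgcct
Tnfrsf19, chr14:61046856-61047105, minus strand: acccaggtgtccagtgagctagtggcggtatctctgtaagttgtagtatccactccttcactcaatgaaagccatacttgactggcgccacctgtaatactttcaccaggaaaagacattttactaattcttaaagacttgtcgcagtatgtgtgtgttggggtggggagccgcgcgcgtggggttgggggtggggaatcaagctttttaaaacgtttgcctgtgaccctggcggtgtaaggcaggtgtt
The motifs were searched on both strands of these 250 bases. They were TATAAA (the TATA box), GGGCGG (the core of a GC box), TTCNNNGAA (a form that Stat factors bind) and GAAANNGAA (a form found in interferon response elements). Matches to GGGCGG were found in Ifngr1 (2) and Cxcl12 (5, of which 2 overlap). Ifnar2 held 1 match to TTCNNNGAA, and Tnfrsf19 held none of the 4. Of the 44 member promoters 11 (25.0%) held GGGCGG, beside 33.0% of 27025 gene promoters in the table. TTCNNNGAA was in 5 members (11.4%) and 7.14% of all promoters, and GAAANNGAA in 4 (9.09%) and 7.16%. All of these 5 but Ifnar2, and all of these 4 but Ccl19, had searched bases inside the gene model, from 2 bases in Ccr6 to 250 in Cxcl14 and Ccr2. TATAAA was in 6 members (13.6%) beside 3507 of the 27025. A match is a description of these letters and no measure of binding.

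Among chemokine ligands, the other 11 lay between -0.17 and 0.51, and the pairs of ligand and receptor on the array did not share 1 direction or size. Ccl19, a ligand of Ccr7, had a log2 ratio of 0.35 ± 0.28 (SD, n = 13), positive in 11 of 13 strains, beside 1.23 for its receptor. Cxcr3, a receptor of activated T cells, was at 0.55 ± 0.06 (SD) and its ligand Cxcl11 at 0.42 ± 0.16 (SD), both positive in 13 of 13 strains. Ccr6 and its ligand Ccl20 were at 0.31 and 0.05, and Ccr9 and its ligand Ccl25 at 0.20 and 0.01. Ccr2, the receptor of Ccl2 on monocytes, was at 0.05 ± 0.22 (SD), with Ccl2 at -0.17. The chemokine Ccl8 was at 0.13. Apart from Ccr7, none of these was past the size minimum. Ccl6, a macrophage chemokine, was at 0.51 ± 0.38 (SD), positive in 13 of 13 strains. Ccl25 was listed at exactly 0 on 17 of 82 arrays, so its values carry less information than those of other members.

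All 16 probes of interleukin receptor chains lay within the size minimum, from -0.17 for Il13ra2, a decoy receptor of Il13, to 0.65 for Il12rb1, a chain shared by the receptors of Il12 and Il23. Il21r, the receptor of a T cell cytokine, was at 0.55 ± 0.08 (SD, n = 13) and Il2rb, the chain shared by the receptors of Il2 and Il15, at 0.44 ± 0.26 (SD). The 2 probes of Il2ra disagreed in sign. Probe MUSIL2RB02 had a mean of 0.07 ± 0.08 (SD; adjusted p = 0.0261) and probe MUSIL2RH02 one of -0.10 ± 0.16 (SD; adjusted p = 0.0429), and both changed sign with the dye orientation, so no direction is given for Il2ra. Among interleukin ligands, Il16, an attractant of T cells, was at -0.63 ± 0.21 (SD), Il17b at -0.59 ± 0.08 (SD) and Il1f5 at -0.47 ± 0.08 (SD), each negative in 13 of 13 strains. In the 4 strains with forward arrays alone Il1f5 ran from -0.22 to 0.28, with a mean of 0.13. On forward arrays of the 13 strains it ran from -0.99 to -0.34. Il17rb, the receptor of Il17b, was at 0.37 ± 0.14 (SD), so this ligand and its receptor lay on opposite sides of the reference. Il9, a T cell growth factor, was at 0.46 ± 0.19 (SD).

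In the TNF family, Tnfrsf13b, a B cell receptor for survival ligands, was at 0.69 ± 0.20 (SD, n = 13), and Tnfsf4, a costimulatory ligand of T cells, at 0.55 ± 0.16 (SD). Tnfrsf4, the receptor of Tnfsf4, was at 0.17 ± 0.18 (SD). Tnfsf11, the ligand that drives osteoclast formation, was at -0.37 ± 0.20 (SD), and its decoy receptor Tnfrsf11b at -0.05 ± 0.15 (SD). Of the 3 other proteins, Tnfaip1 was at 0.25, Il4i1 at 0.05 and Il18bp at -0.04, all inside the size minimum.

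The direction depended on the dye orientation for many members. For 16 of the 56 members (28.6%) the means were of opposite sign on forward and swapped arrays of the same 13 strains, beside 25.3% of all probes. Il11, a cytokine of stromal cells, was at 0.77 on forward and -0.84 on swapped arrays. Tnfrsf11b was at 0.73 and -0.83, Ccr2 at 0.59 and -0.50, and Il5ra, the chain that binds Il5, at -0.93 and 0.63. For these 4 the mean over both orientations was between -0.15 and 0.05. Il12rb2 was at -0.16 and 0.84, with a mean of 0.34. The 6 called members kept their sign in both orientations.

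Of the lists set beside the members, 20 of 54 genes that signal below cytokine receptors were measured, and 1 was called against embryo: Chuk, a kinase of the NF-kB pathway, at 1.92. Their median was 0.14, beside 0.07 for all probes. Of 19 measured genes for other ligands and receptors of blood and immune cells, 5 were called, among them Fas (1.98) and Ghr (1.43), which were higher, and Kitl (-1.34) and Pf4 (-2.97), which were lower. Hepatocyte markers were called higher in 5 of 5 probes, with a median of 3.38. None of 4 macrophage markers was called (median 0.18), 1 of 4 T cell markers was (Cd4, 1.10), and 2 of 3 neutrophil markers were lower (Ngp at -2.62 and S100a8 at -1.17). Of 4 stellate cell and fibroblast markers 2 were lower (Lum at -1.66 and Acta2 at -1.06), and of 2 bone and cartilage markers 1 was (Ibsp at -4.09). Not called were Lrat (0.82) and Col1a1 (-0.44) of the stellate cell and fibroblast markers and Acan (0.15) of the bone and cartilage markers. Of the T cell markers Thy1 (-0.69), Cd3e (0.21) and Cd2 (0.19) were not called, nor was Elane (0.18) of the neutrophil markers. None of the 4 endothelial, 1 B cell and 1 bile duct markers was called. Their part in the members' ratios was not tested.

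Between the sexes 19 of the 56 members (33.9%) were called, 12 higher and 7 lower in females, over 17 strains with strain as a block. All probes were called at 33.7%, 16.5% higher and 17.2% lower in females, so the share of members is that of the array. The members higher in females were Ifngr1, Il2rb, Il16, Tnfrsf19, Ccr2, Cxcl12, Tnfsf14, Il17rb, Il13ra2, Il27ra, Il21r and Cxcl15, in order of size from 0.48 to 0.10. Those lower were Ccr7, Il12rb1, Il9, Ifnb1, Tnfrsf13b, Ccr6 and Ccr9, from -0.70 to -0.13. Of the 5 chemokine receptors 4 were called, 3 of them lower in females. Of 16 interleukin receptor probes 6 were called, 5 of them higher. In each of the 13 strains with both orientations, males and females were never in the same run, taken here as a stretch of consecutively deposited arrays. The 4 strains with forward arrays alone had both sexes in 1 run, so they alone give a sex difference within a strain and a run. With the run as a term 10 members were called, 8 of them among the 19 and with the same sign, beside 21.8% of all probes.

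**Figure D2:**
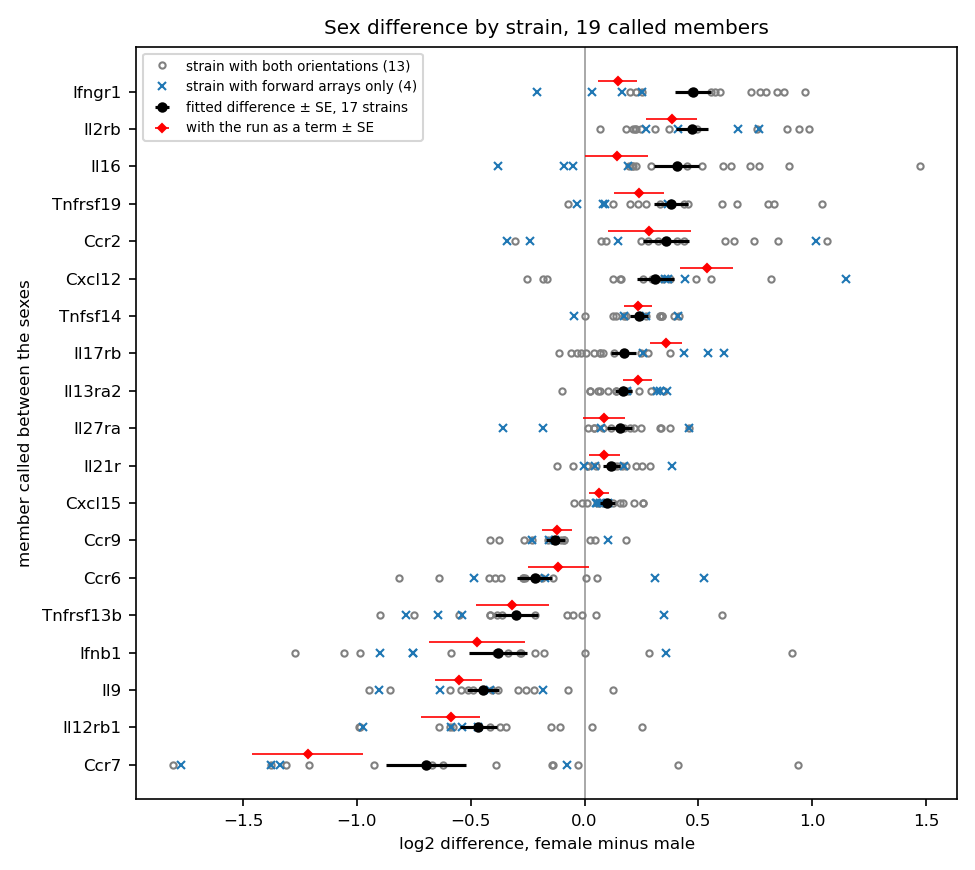
Female minus male log2 difference of the 19 called members. Circles are the 13 strains with both dye orientations, crosses the 4 strains with forward arrays alone, black points the fitted difference with its SE over 17 strains, and red diamonds the estimate with the run as a term with its SE. Ccr7, Il12rb1 and Il9 kept a negative estimate and Il2rb, Cxcl12 and Tnfsf14 a positive one with the run term, while those of Ifngr1 and Il16 moved towards 0.

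Ccr7 had the largest difference of the members. In males its ratio to embryo ran from 0.44 to 2.34 with a median of 1.36 over 17 strains, and in females from -0.07 to 1.78 with a median of 0.61. The ranges overlapped, and females were lower in 15 of 17 strains, by -0.70 ± 0.18 (SE) with an adjusted p of 0.00486. This call was lost on swapped arrays alone. The difference was -1.22 ± 0.24 (SE; adjusted p = 0.00323) with the run as a term and it lay between -1.49 and -0.08 within the 5 runs that held both sexes. Ccr7 had a mean difference of -0.56 in the 13 strains with both orientations and of -1.14 in the 4 strains with forward arrays alone. Its ligand Ccl19 differed by -0.15, which was not called. Il12rb1 ran from 0.29 to 1.51 in males (median 0.79) and from -0.02 to 0.90 in females (median 0.37), lower in 15 of 17 strains by -0.47 ± 0.08 (SE; adjusted p = 0.000294). Il12rb2, its partner in the Il12 receptor, differed by 0.08 and was not called.

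Il9 ran from 0.19 to 1.12 in males (median 0.68) and from -0.03 to 0.65 in females (median 0.15). It was lower in females in 16 of 17 strains, by -0.45 ± 0.07 (SE; adjusted p = 0.000147), and lower within each of the 5 runs with both sexes. Ifnb1 ran from -0.56 to 1.67 in males (median 0.92) and from 0.06 to 1.20 in females (median 0.44). It was lower in 14 of 17 strains by -0.38 ± 0.13 (SE; adjusted p = 0.0278), and this call was lost with the run term (-0.47 ± 0.21 SE; adjusted p = 0.113) and in the 13 strains with both orientations (-0.34). It was also lost without BXD11, BXD14, BXD21 or BXD32, at differences from -0.35 to -0.32. Of the receptor chains that bind interferons, Ifnar1 differed by 0.21 and Ifnar2 by -0.14, neither of them called.

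Il2rb was higher in females in 17 of 17 strains. Its ratio ran from -0.62 to 0.52 in males (median 0.19) and from 0.25 to 1.30 in females (median 0.53), a difference of 0.47 ± 0.07 (SE; adjusted p = 0.000122). With the run as a term it was 0.38 ± 0.11 (SE; adjusted p = 0.0213), and it was positive within 5 of 5 runs. Both probes of Il2ra, the alpha chain of the Il2 receptor, were near 0 at 0.04 and 0.09 and not called. Cxcl12 ran from 0.64 to 2.02 in males (median 1.16) and from 0.62 to 2.40 in females (median 1.42). It was higher in 14 of 17 strains by 0.31 ± 0.08 (SE; adjusted p = 0.00626) and by 0.54 ± 0.11 (SE; adjusted p = 0.00438) with the run as a term. The mean difference of Cxcl12 was 0.23 in the 13 strains with both orientations and 0.58 in the 4 strains with forward arrays alone.

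Ifngr1 ran from -2.12 to 0.16 in males (median -1.58) and from -1.38 to 0.20 in females (median -1.04). It was higher in females in 16 of 17 strains by 0.48 ± 0.08 (SE; adjusted p = 0.000229), but with the run as a term the difference was 0.14 ± 0.08 (SE; adjusted p = 0.226). Il16 ran from -1.22 to -0.44 in males and from -1.01 to 0.65 in females, higher in 14 of 17 strains by 0.40 ± 0.10 (SE; adjusted p = 0.004). It too was not called with the run term (0.14; adjusted p = 0.495), and it was below 0 in the 4 strains with forward arrays alone (-0.08). Tnfrsf19 ran from -3.53 to -1.37 in males and from -2.80 to -1.33 in females, higher in 15 of 17 strains by 0.38 ± 0.08 (SE; adjusted p = 0.000859) and by 0.24 with the run term (adjusted p = 0.126). Ccr2 ran from -1.09 to 0.97 in males and from -0.32 to 1.12 in females, a difference of 0.36 ± 0.10 (SE; adjusted p = 0.00919) and of 0.28 with the run term, where it was not called. Within the 5 runs with both sexes, Ifngr1 (0.03 to 0.71) and Tnfrsf19 (0.09 to 1.79) were higher in females in 5 of 5, and Il16 (-0.38 to 0.49) and Ccr2 (-0.24 to 0.44) in 4 of 5. In 3 of those 5 runs the males and females were of different strains.

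The other called members had smaller differences. Those lower in females were Tnfrsf13b (-0.30), Ccr6 (-0.22), the receptor of Ccl20, and Ccr9 (-0.13), the receptor of Ccl25. Those higher were Tnfsf14 (0.24), a ligand of T cells, Il17rb (0.17), Il13ra2 (0.17), Il27ra (0.15), Il21r (0.12) and Cxcl15 (0.10). With the run term Tnfsf14, Il17rb and Il13ra2 were called and the other 6 were not, and Ccl8 (0.21) and Cxcl11 (0.37) were called there alone. The calls of Il17rb and Il21r were lost in the 13 strains with both orientations and on swapped arrays alone. The mean difference of Il17rb was 0.08 in those 13 strains and 0.46 in the 4 strains with forward arrays alone. For 3 of these 9 members the call was lost when 1 strain was left out. Ccr6 was no longer called without BXD2, BXD12, BXD14, BXD19, BXD31 or BXD32, Ccr9 without BXD21 or BXD32, and Il27ra without any of 9 strains. Among the genes below cytokine receptors 5 of 20 were called, Socs2 (0.38) and Ripk1 (0.20) higher in females and Socs1 (-0.39), Stat5a (-0.32) and Myd88 (-0.30) lower. Of the other ligands and receptors of blood and immune cells 6 of 19 were called, among them Fas (0.51), Pf4 (0.43) and Kit (0.25), which were higher, and Tgfb1 (-0.46) and Edar (-0.27), which were lower. Of the markers, 2 of 4 macrophage genes (C1qa at 0.35 and C1qb at 0.37), 1 of 4 T cell genes (Cd3e at 0.14) and 2 of 4 stellate cell and fibroblast genes (Lum at 0.27 and Lrat at 0.26) were higher in females. Not called were Cd5l (-0.18) and Marco (-0.10) of the macrophage genes, and Thy1 (0.22), Cd2 (0.06) and Cd4 (-0.10) of the T cell genes. Col1a1 (0.01) and Acta2 (-0.01) of the stellate cell and fibroblast genes were not called either. Of 4 endothelial genes Tek was higher (0.33) and Tie1 lower (-0.26), and 0 of 5 hepatocyte genes were called. Their part in the members' differences was not tested.

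Across the 13 strains with both orientations, 1 of the 56 members, Tnfrsf19, differed between strains in the moderated F test, beside 1.19% of all probes. Its adjusted p was 0.0347 (F = 7.04), with an SD between strain means of 0.40 and a residual SD within strains of 0.23. The lowest strain, BXD12, had values of -3.53 in males and -2.70 in females, and the highest, BXD15, had -1.60 and -1.33. These means are 3.13-fold apart, and BXD15 lay above the other 12 strains in both sexes. The call rested on single strains: the SD was 0.24 without BXD15, and the call was lost without BXD11, BXD12, BXD15 or BXD31, on either orientation alone, without the sex term, after quantile normalization and with a trended, robust prior.

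**Figure D3:**
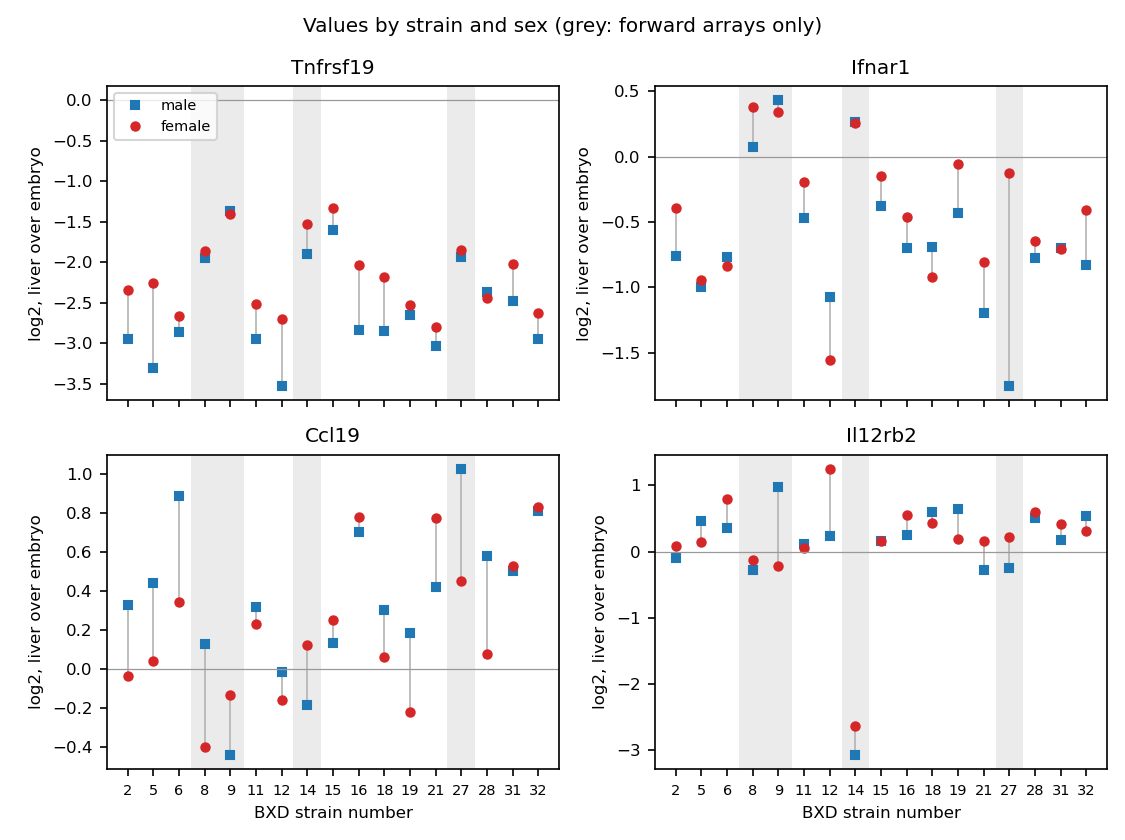
Log2 ratio of liver over embryo for Tnfrsf19, Ifnar1, Ccl19 and Il12rb2 in males (squares) and females (circles) of each BXD strain, with strains of forward arrays alone on grey. Tnfrsf19 was highest in BXD15 among the 13 strains off grey, and Il12rb2 was near -3 in both sexes of BXD14 and near 0 or above elsewhere.

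Ifnar1 came next with an adjusted p of 0.0702. It ran from -1.32 in BXD12 to -0.24 in BXD19, with an SD between strains of 0.31 and a residual SD of 0.19, and it passed the threshold after quantile normalization and with a replicate block. BXD12 was at -1.08 in males and -1.55 in females, BXD19 at -0.43 and -0.06. In BXD8, BXD9 and BXD14, whose arrays were forward and of 1 run, Ifnar1 lay between 0.08 and 0.43 in single sexes. Their means over the sexes were 0.23, 0.39 and 0.26, above the highest such forward mean of the 13 strains, which was 0.00. BXD27, forward as well but of another run, had -1.76 in males and -0.12 in females. Ccl19 ran from -0.09 in BXD12 to 0.82 in BXD32 (adjusted p = 0.117) and Ccl25 from -1.03 in BXD2 to 0.53 in BXD5 (adjusted p = 0.141). In all, 11 members (19.6%) had an unadjusted p under 0.05 in limma, 5 of them chemokine ligands, beside 13.8% of all probes. Of the genes below cytokine receptors 0 of 20 were called between strains, and of the other ligands and receptors of blood and immune cells 1 of 19 was, Edar, with an SD between strains of 0.28 and an adjusted p of 0.0478.

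Il12rb2, the chain that completes the Il12 receptor, is named here after its values were seen. It was at -3.07 in males and -2.63 in females of BXD14, and the other 16 strains lay between -0.28 and 1.25. BXD14 was hybridised on forward arrays, on which the means of the 13 strains over the sexes lay between -0.46 and 0.20. The mean of BXD14 over the sexes was -2.85. BXD8 and BXD9 of the same run were at -0.28 and -0.12, and at 0.97 and -0.21. No swapped array of BXD14 was analysed here, and the strain entered the F test in the fit of all 17 strains on forward arrays alone, where 5 members were called (Il12rb2, Ifnar1, Ifngr1, Cxcl12 and Tnfrsf19). The members' share of 8.93% in that fit was that of all probes, 8.94%. Il12rb1, the partner chain, was not among them.

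B6 and D2 liver were set against each other in 2 male and 2 female comparisons, each with 1 replicate on a dye-swapped pair and 1 on a swapped array alone. No member was called in limma, and of all probes 0% were. At an unadjusted p under 0.05 there were 572 of all probes and 0 members. Ifnar1 was below 0 on 6 of 6 arrays. On male arrays it was at -0.16 (forward), -0.26 (swapped) and -0.23 (replicate 2), and on female arrays at -0.40, -0.31 and -0.23. The fitted difference was -0.28 ± 0.11 (SE, n = 4) and was not called by adjusted p. In this fit the dye orientation covariate set the replicate 2 arrays apart from the replicate 1 pairs. Each fitted difference of B6 and D2 is therefore the mean of the 2 replicate 1 pairs, and replicate 2 enters its SE alone. Cxcl11 was also below 0 on all 6, between -0.38 and -0.03, with a fitted difference of -0.25 ± 0.11 (SE). Tnfsf11 (fitted difference -0.26), Ccl25 (-0.40) and Tnfsf14 (-0.09) were below 0 on all 6 as well. These 5 members are 8.93% of the 56, beside 9.59% of all probes with the same sign on all 6 arrays, and none passed the threshold.

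**Figure D4:**
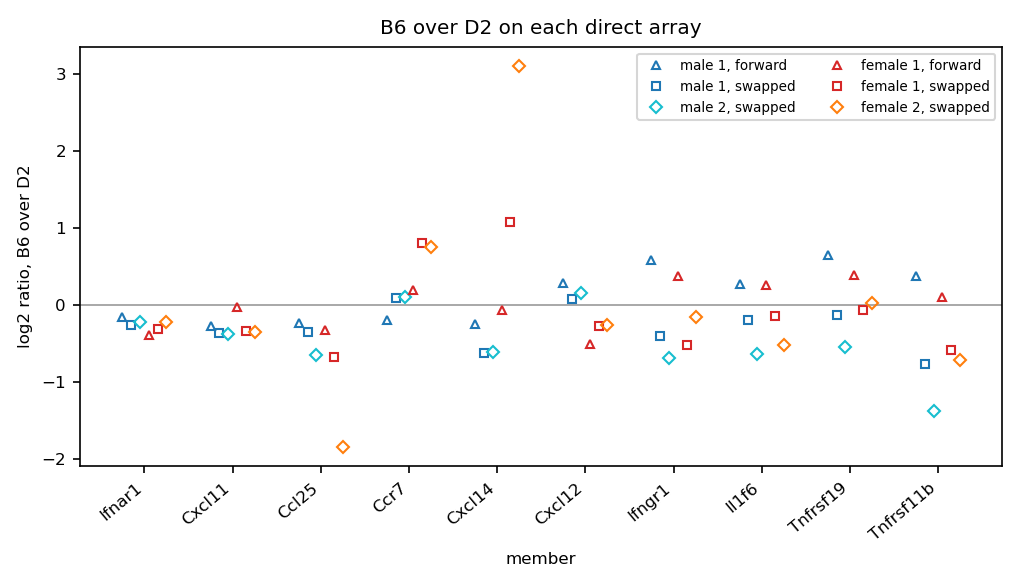
Log2 ratio of B6 over D2 liver on each of the 6 direct arrays for 10 members, by sex, replicate and dye orientation. Ifnar1, Cxcl11 and Ccl25 lay below 0 on every array, Ifngr1, Il1f6, Tnfrsf19 and Tnfrsf11b changed side with the orientation in replicate 1, and Cxcl14 was far above 0 on 1 female array.

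The members called against embryo did not separate the parents. Tnfrsf19 was at 0.65 and -0.13 on the male pair and 0.39 and -0.06 on the female pair, with the forward array first, and at -0.55 and 0.02 on the male and female replicate 2 arrays. On both pairs the sign changed with the dye, and the fitted difference, which is the mean of both pairs, was 0.21 ± 0.17 (SE, n = 4). Ccr7 was near 0 in males, at -0.20, 0.08 and 0.10, and above 0 in females, at 0.20, 0.80 and 0.75. Cxcl12 showed the opposite order, with 0.28, 0.08 and 0.16 in males and -0.50, -0.28 and -0.26 in females. Cxcl14 was at -0.25, -0.62 and -0.61 in males and at -0.07, 1.07 and 3.10 in females, so its female values hang on 1 array. The sex term of limma on these 4 values called no member, with an adjusted p of 0.575 for Ccr7, Cxcl12 and Cxcl14. Against embryo, B6 males had 0.85 for Ccr7, 1.55 for Cxcl12, -2.13 for Tnfrsf19, -1.91 for Ifngr1, -1.01 for Il1f6 and -0.22 for Cxcl14 as the mean of 1 dye-swapped pair, which shares its reference with the BXD arrays.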

How the data were processed

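RNA of whole liver was measured on 82 two-colour arrays. For every array the authors deposited a log-scaled ratio of its channels at each probe, with the normalization not given in the sources used here. These deposited ratios were read as log10, channel 2 over channel 1: the base was taken from 94 values at exactly 2 in size with none beyond, and the direction from hepatocyte and bone markers. Each was turned to liver over embryo or B6 over D2 and rescaled to log2. No intensities were used, so the depth behind a ratio is unknown and the number of arrays limits the precision.

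Arrays were averaged within strain, sex and dye orientation, then over orientations. Tests used lmFit and eBayes of limma 3.58.1 in R 4.3.3 per probe over 21936 probes, with Benjamini-Hochberg adjustment at 0.05. The embryo comparison used 13 strain means and an absolute log2 ratio of at least 1. The sexes were compared over 17 strains with strain as a block. Strains were compared by a moderated F test with a sex term on 26 values, and B6 with D2 on 4 values with the dye orientation as a covariate. With that covariate the fitted B6 and D2 difference is the mean of the dye-swapped pairs of replicate 1. The fits were tested on simulated data.

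All members were counted. Full values were given for every member called against embryo, between strains or between B6 and D2, and for the 10 called sex differences of largest size, with partners of called members and members whose probes disagree also named. Of the called genes of the lists, 1 is not reported here. The members and lists were chosen with earlier results of these data known. The alternatives were scaling, dye orientation, replicate number, run, prior and leaving out each strain. The labels do not say that arrays of a strain came from separate mice, so p-values measure the spread between strains or arrays. The 2 enriched arrays entered 1 alternative alone. Promoters were matched by gene ID to RefSeq sequences of GRCm38.p6. Probe names came from the platform annotation, which can be old.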

Additional observations from a re-analysis of the deposited data

Results flagged for a closer look

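On the direct B6 and D2 arrays, 5 members had 1 of 4 values far from the other 3. Chance alone flags about 1 in 20 where the 4 values are alike in kind. Here replicate 1 is a dye-swapped pair and replicate 2 a swapped array alone, so that rate does not apply. The share over all probes is not given, and no result is drawn from this count. Ccl19 was at -0.93 in male replicate 2, with the others between -0.21 and -0.14. Ccl8 was at -0.44 in female replicate 2, with the others between -0.02 and 0.05. Il18r1 was at -0.51 in female replicate 2, with the others between -0.15 and -0.07. Il18rap, the accessory chain of that receptor, was at -0.35 in male replicate 2, with the others between -0.12 and -0.11. Ifnar1 was at -0.35 in female replicate 1, with the others between -0.23 and -0.21. In 4 of these 5 cases the value was that of a swapped array alone.

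For 9 members (16.1%), beside 14.1% of all probes, both male values lay on 1 side of 0 and both female values on the other, and the limma sex term on these 4 values called none of them. Cxcl14 had a mean log2 ratio of B6 over D2 of -0.52 in males and 1.80 in females. Cxcl13, a B cell chemokine, was at -0.53 in males and 0.066 in females, and Tnfsf4 at -0.16 and 0.24. Cxcl12 was at 0.17 in males and -0.33 in females, Il1f5 at 0.25 and -0.36, and Tnfaip1 at 0.15 and -0.26. Ccl8 was at 0.034 in males and -0.23 in females, Il13ra2 at 0.16 and -0.075, and Il7r, the receptor of Il7, at 0.090 and -0.045.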

How the results depend on the processing

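Against embryo, 6 members (10.7%) were called without each strain in turn, beside 13.6% to 14.1% of all probes. With the deposited values taken as log2 there were 0, beside 0.939% of all probes. With no minimum ratio, a setting chosen after seeing the data, there were 45 (80.4%), beside 83.9%. Centring each array moved the median of all probes from 0.07 to 0.02. Between the sexes 15 to 24 members were called without each strain in turn. The 15 (26.8%) without BXD32 stand beside 30.3% of all probes and the 24 (42.9%) without BXD27 beside 37.2%. With the run as a term 10 (17.9%) were called, beside 21.8% of all probes. In the 4 strains with forward arrays alone 0 members and 0 of all probes were called. In those 4 strains Ccr6 (0.043), Il16 (-0.083) and Il27ra (-0.00235) changed sign. Between strains 0 to 1 members were called without each strain in turn, beside 0.634% to 1.26% of all probes. There were 0 with a trended, robust prior (1.03% of all probes), on forward (0.748%) or swapped arrays alone (0.456%) and without the sex term (0.333%). In all 17 strains on forward arrays 5 (8.93%) were called, beside 8.94%. Between B6 and D2 no member was called in the main fit or on other settings except swapped arrays alone. That setting called 1 member (1.79%), Tnfrsf11b at -0.86, beside 3.12% of all probes. The dye effect is not cancelled there, and on the forward direct arrays Tnfrsf11b was at 0.37 in males and 0.11 in females. Over all probes the settings called 206 to 3499 against embryo, 0 to 8359 between sexes, 73 to 1960 between strains and 0 to 684 between B6 and D2. The cause of these changes was not tested.

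Whether equal replicate numbers pair the samples was not settled. Of 66 pairs of groups with both numbers, each orientation a group of its own, 19 had deviations that correlated above 0.1, with r from -0.48 to 0.465. Forward and swapped arrays of the same strain and sex are matched by their titles. They correlated at 0.0468 in BXD15, -0.0107 in BXD21, -0.198 in BXD31 and -0.19 in BXD32 females and at 0.4 in BXD6 males. The comparison can thus miss a known match, and no conclusion is drawn from it. With a replicate block 21 members (37.5%) were called between sexes beside 35.8% of all probes, 3 (5.36%) between strains beside 3.93%, and 0 between B6 and D2.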

Other observations

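On the enriched B6 and D2 arrays, which entered only an alternative fit of B6 against D2, Cxcl11 had a log2 ratio of 3.77 in males and 0.01 in females, and Ifnar1 had -0.35 and -0.22. Each of these values is that of 1 swapped array without a dye partner. On the direct arrays Cxcl11 was at -0.27, -0.36 and -0.38 in males and at -0.03, -0.34 and -0.35 in females. An extra female array of BXD11, titled as a dye swap but with channels labelled as forward, correlated at 0.846 with the forward array and at -0.835 with the swapped array of that strain across probes, and was used as forward. Over the 13 strains with both orientations, BXD15 and BXD21 each had the lowest ratio for 11 members and the highest for 7. Of all probes, BXD15 had the lowest ratio for 13.4% and BXD21 for 9.45%.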
